A study of Taeniopygia guttata with 5 samples.

Results

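RNA-Seq reads of HVC, a song nucleus of the forebrain, were compared with those of whole brain in juvenile male zebra finches at 45 d. The comparison covered every transcript that the deposited table of HVC against whole brain at 45 d lists, 1800 of the 4675 transcripts listed for any comparison of the series, and 1530 of them carry a gene symbol. A transcript was described as higher or lower only where both HVC libraries lay on the same side of whole brain. The authors listed the 1800 smallest p-values of 11507 transcripts tested, 15.6%, so every listed transcript was chosen on the difference described here, and shares among them say nothing about all genes. In juvenile HVC the genes *ALDH1A2*, *CRHBP*, *NTS*, *THBS4*, *SEMA3E* and *ISG12* were higher than in whole brain, and genes of cerebellar granule cells, choroid plexus and hindbrain or thalamic patterning were lower, as were *SLC5A7* and *CHAT* of cholinergic neurons.

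Juvenile HVC gave 2 libraries, R92L1 and R92L2 in the file headers, and each pooled RNA of 4 males. Whole brain at 45 d gave 1 library, from 2 males. The juveniles lived with their parents, and in the hour before collection they neither sang nor heard song. At 100 d, adults gave 1 HVC library and 1 whole brain library. The main 45 d fit did not use them. They served for values side by side, for alternative fits with terms for tissue and age, and for a test of the interaction of tissue and age. HVC was cut from brain slices, and the pieces may hold some of the ventricular zone, which lines the ventricle next to it. Whether different birds went into each HVC library is not stated, and p-values below therefore rest on a spread between the pair that may be technical only. The headers give the tissues different run names (R92 for HVC, R81 for whole brain), and a difference of run and one of tissue cannot be told apart. In tissue RNA, fewer cells of a type and less RNA per cell cannot be told apart either.

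HVC lies in the pallium, the part of the bird forebrain that corresponds to cortex. Its projection neurons drive the vocal motor pathway through the nucleus RA and feed the striatal nucleus Area X, which song learning requires, and inhibitory interneurons shape their firing. New neurons born at the ventricle join HVC in young and adult birds, and HVC is known for its response to sex steroids and for an enzyme that makes retinoic acid.

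The listed transcripts held 284488 and 344697 reads in the HVC libraries and 744218 in whole brain, which is not the full depth. The relative size of each library was worked out from the scale of the fold changes that the authors deposited. Relative to whole brain they were 0.501 for R92L1 and 0.605 for R92L2, and normalised reads below are reads divided by these sizes. Over 266 transcripts listed in both comparisons of age, which were not chosen on tissue, the median ratios gave 0.5 and 0.605, a shift of 0.001 on the log2 scale. Another 3 scalings were computed over transcripts listed for their tissue difference (sums of listed reads, relative log expression and TMM), and they raised every log2 fold change by 0.388, 0.552 and 0.303.

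The quasi-likelihood test of edgeR called 688 of 1928 transcripts, 35.7% of those tested, at an adjusted p under 0.1 (Benjamini-Hochberg over the 11507 transcripts that the authors tested). Of these, 268 were higher in HVC (13.9%) and 420 lower (21.8%), and all 688 were among the listed transcripts. The number of calls was not stable, and the spread rests on 1 residual degree of freedom. With the sizes from the age comparisons, which differ by 0.001 on the log2 scale, edgeR called 222 transcripts (11.5%), 83 higher (4.3%) and 139 lower (7.21%), and the prior degrees of freedom were 7.17 rather than 24.5. All 222 were among the 688, and beside most gene groups below stands the number of calls that both sets of sizes gave. Counts of members called with the first sizes are to be read against the shares over all tested, 13.9% higher and 21.8% lower. Genes listed for no comparison have no counts here, so the members tested are only a part of each list. For 33 names of oligodendrocytes and myelin, 11 transcripts had counts, and for 30 cerebellar names 14. For 30 pallial names 10 had counts, for 28 activity-regulated names 8 and for 22 names of newborn neurons 5. DESeq2 called 121 transcripts and limma-voom 341, all among the 688. Without R92L1, in an edgeR fit with the adult libraries and terms for tissue and age, 0 of 1138 transcripts were called, while 853 had an unadjusted p under 0.05, and without R92L2 the same fit called 582 of 1135. These 2 fits had no repeated group, so their spread is the departure from additive tissue and age terms. It is not the spread of the HVC pair, and their calls cannot be compared with the main count. Transcripts higher in HVC made up 39% of the main calls, against 75.9%, 84.4% and 68.5% under the 3 scalings over listed transcripts. Counts of members under these scalings are to be read against 217, 593 and 159 transcripts called higher and 69, 110 and 73 lower. These were called among 1892, 1883 and 1897 tested. The median log2 fold change, HVC over whole brain, was 1.61 for transcripts called higher, -1.44 for those called lower and -0.69 over all tested.

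Both HVC libraries lay above whole brain for 770 listed transcripts (42.8%) and below it for 1027 (57.1%), and 3 were split. The listing favours such agreement, since it was made from these libraries. The HVC libraries differed more than 2-fold for 150 of 1473 listed transcripts (10.2%) that had 20 or more reads in the pair, and the median difference was 1.26-fold. Calls reached beyond 4-fold for 88 higher and 102 lower transcripts.

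**Figure D1:**
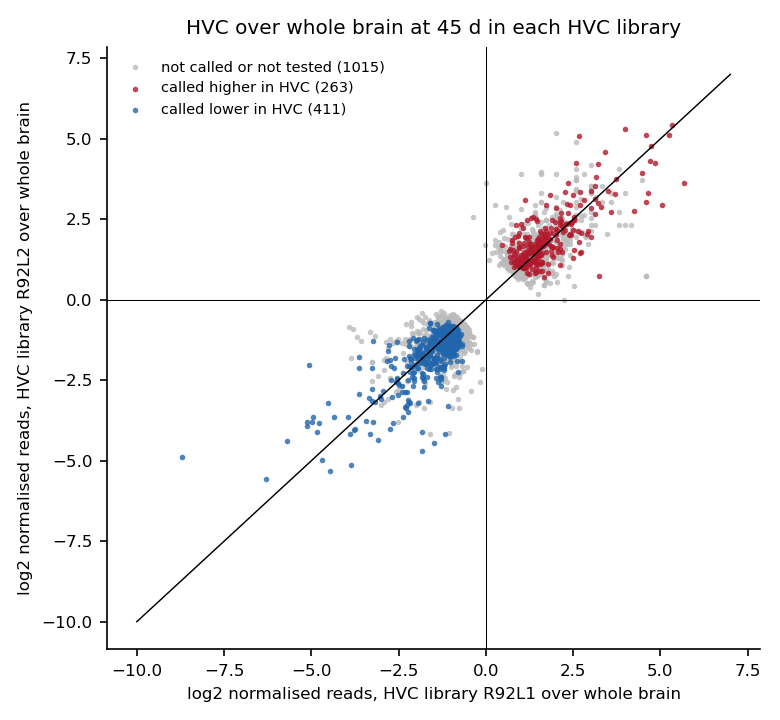
Log2 ratio of normalised reads, HVC over whole brain at 45 d, for library R92L1 (horizontal) and R92L2 (vertical); each of the 1689 points is a listed transcript with reads in all 3 libraries, and the diagonal marks equal values. Called transcripts (263 red, higher in HVC; 411 blue, lower in HVC) fall at the upper right and at the lower left, and the gap around 0 is where transcripts were not listed.

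The 12 genes with the largest excess in HVC were taken from those with at least 20 reads on average. They include a calcium buffer, a peptide gene, a hormone-binding protein, an enzyme of retinoic acid synthesis and secreted or matrix proteins. *ALDH1A2*, a known marker of HVC in songbirds, encodes retinaldehyde dehydrogenase, which makes retinoic acid (chromosome 10 of taeGut1, 6786365 to 6838567). It had 3707 and 4897 normalised reads in HVC, against 423 in whole brain (log2 fold change 3.35, SE 0.371, edgeR adjusted p = 1.76e-06). *CRHBP*, whose protein binds and buffers corticotropin-releasing hormone (chromosome Z of taeGut1, 56938915 to 56947642), had 2524 and 1919 normalised reads in HVC, against 258 in whole brain (log2 fold change 3.10, SE 0.357, edgeR adjusted p = 3.15e-06). Both genes were abundant, and each HVC library lay several-fold above whole brain. *PVALB-1*, a parvalbumin gene, had 23 and 39 reads as counted in HVC, against 0 in whole brain, at least 18.7-fold higher (edgeR adjusted p = 0.00036). *UTS2D*, a urotensin-family peptide gene, had 61 and 78 reads as counted in HVC, against 3 in whole brain, a ratio of 41.9 with an exact 95% counting interval of 14.04 to 206. Neither was seen in more than a few reads of whole brain, and both HVC libraries gave 23 reads or more. *FGL2*, which encodes a fibrinogen-like secreted protein, had 555 and 577 normalised reads in HVC, against 21 in whole brain, at 4.74 (SE 0.433) on the log2 scale. *SLC7A2*, a carrier of cationic amino acids, had 91.8 and 81.05 normalised reads in HVC, against 10 in whole brain (log2 fold change 3.09, SE 0.632, edgeR adjusted p = 0.00404). *MYLK4*, a kinase of the myosin light chain kinase family, was less even: 16 and 103 reads as counted in HVC, against 5 in whole brain, so that the HVC libraries differed 5.34-fold after scaling, and its call was lost with the sizes from the age comparisons. The rest of the 12 largest were *RPS2*, *THBS4*, *PHEX*, *LY6E-2* and *ISG12*, described with their groups below. A number after the hyphen marks one of several copies in the annotation, and reads may be shared between copies.

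The largest deficits in HVC were genes of cerebellum, choroid plexus, cholinergic neurons and other regions. *EBF3*, a transcription factor of neurons in several regions (chromosome 6 of taeGut1, 35154199 to 35276306), had 6 and 4 reads as counted in HVC, against 265 in whole brain (log2 fold change -4.84, SE 0.497, edgeR adjusted p = 5.25e-07). *CASQ2*, the calcium-binding protein of muscle calcium stores (chromosome 1 of taeGut1, 92879562 to 92912484), had 1 and 17 reads as counted in HVC, against 828 in whole brain (log2 fold change -5.68, SE 0.483, edgeR adjusted p = 2.47e-08). Its HVC libraries differed 14.1-fold after scaling, yet both were far below whole brain. *FGB*, which encodes the beta chain of fibrinogen, had 1 and 3 reads as counted in HVC, against 103 in whole brain, at -4.77 (SE 0.695) on the log2 scale. *snoU2-30*, annotated as a small nucleolar RNA, had 20 and 10 reads as counted in HVC, against 576 in whole brain, at -4.38 (SE 0.394). Its locus (chromosome 1 of taeGut1, 80117600 to 80117668) is shorter than the sequence reads, so these reads need not be of the mature RNA. The other 8 of the 12, from *SLC5A7* and *TTR-1* to *UNC13C-1*, *SLC1A6*, *ZIC1*, *SLC13A4*, *LHX8* and *FAT2*, stand with their groups. The 12 were called with both sets of sizes.

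**Figure D2:**
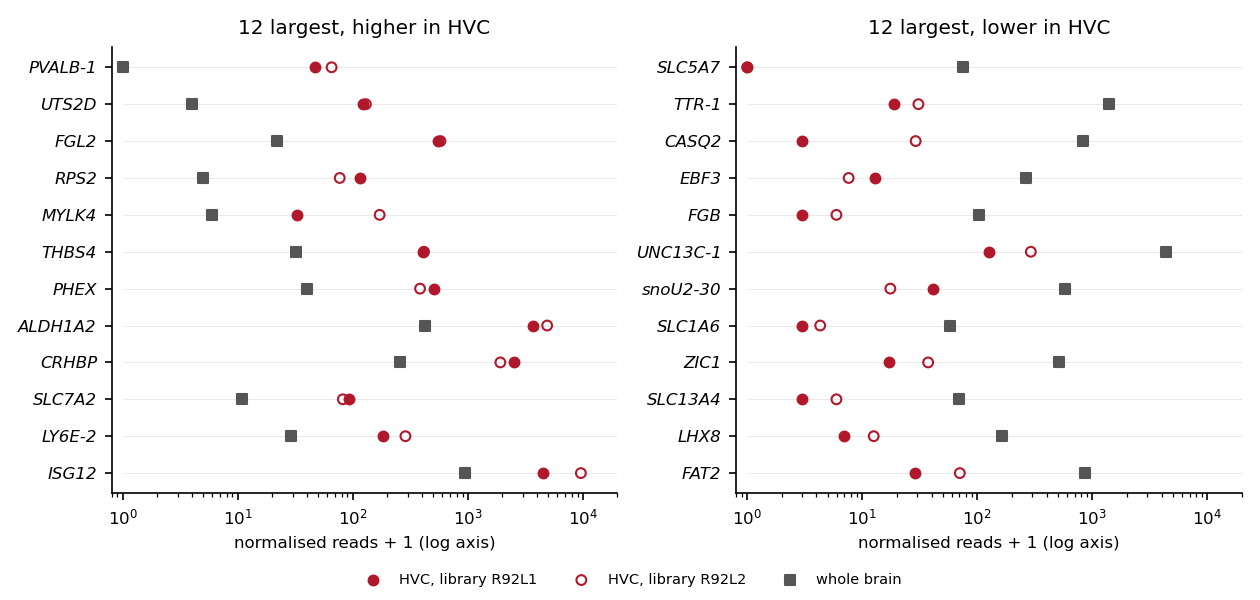
Normalised reads plus 1 on a log axis for the 12 genes furthest from whole brain on each side (called, with a symbol and a mean of at least 20 reads); red circles are the 2 HVC libraries and grey squares whole brain. In every row both HVC libraries lie on one side of whole brain, and the widest pairs are *MYLK4* (16 and 103 reads as counted in HVC, against 5 in whole brain) and *CASQ2* (1 and 17 reads as counted in HVC, against 828 in whole brain).

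Markers of regions outside HVC were low in the dissected tissue. Of 12 cerebellar transcripts tested, 9 were lower in HVC and 0 higher, 6 of them with both sets of sizes (5, 6 and 5 were lower under the 3 scalings over listed transcripts). Their median log2 fold change was -2.99, or -2.73 with a group without reads set to its bound, against -0.69 over all tested. *UNC13C-1*, a synaptic vesicle priming factor of cerebellar granule cells, had 126 and 291 normalised reads in HVC, against 4401 in whole brain (log2 fold change -4.39, SE 0.353, edgeR adjusted p = 1.34e-08). *FAT2*, a giant cadherin of granule cells, had 27.9 and 69.5 in HVC, against 869 in whole brain, at -4.13 (SE 0.377), and *ZIC1*, a zinc finger factor of granule cell precursors, had 15.96 and 36.4 in HVC, against 508 in whole brain, at -4.24 (SE 0.392). For each of them R92L1 was the lower HVC library, and both lay far below whole brain. *KCNC1*, a fast potassium channel gene that many neurons use, stood at 0.93 (SE 0.311) and did not pass (edgeR adjusted p = 0.1 after rounding). *GABRA6*, the GABA-A receptor subunit of granule cells, had 0 and 0 reads as counted in HVC, against 32 in whole brain, at least 11.8-fold lower, and *SLC1A6*, the glutamate carrier of Purkinje cells, had 1 and 2 reads as counted in HVC, against 57 in whole brain, a ratio of 0.0476 with an exact 95% counting interval of 0.00953 to 0.146.

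Transcription factors that pattern hindbrain, midbrain and diencephalon also lay mostly below whole brain. Of 10 tested, 6 were lower and 0 higher, 5 with both sets of sizes, and the median was -2.86. *TCF7L2*, a Wnt effector high in thalamus (chromosome 6 of taeGut1, 27048560 to 27158437), had 109.7 and 104 normalised reads in HVC, against 626 in whole brain (log2 fold change -2.55, SE 0.319, edgeR adjusted p = 1.4e-05). *LHX9*, a LIM homeodomain factor of diencephalon and pallium, had 7 and 14 reads as counted in HVC, against 175 in whole brain, at -3.21 (SE 0.5004). Another 7 members had too few reads to be tested, and of the 17 listed members 15 lay below whole brain in both HVC libraries.

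Both genes of acetylcholine synthesis and choline uptake that passed had few reads or none in HVC. *SLC5A7*, the choline carrier of cholinergic terminals (chromosome 1 of taeGut1, 27526372 to 27546688), had 0 and 0 reads as counted in HVC, against 74 in whole brain, at least 27.3-fold lower (edgeR adjusted p = 8.6e-05). *CHAT*, which makes acetylcholine, had 2 and 2 reads as counted in HVC, against 55 in whole brain (log2 fold change -3.86, SE 0.782, edgeR adjusted p = 0.00368). On the list of monoamine and cholinergic neurons, of 5 members tested, 3 were lower, 2 with both sets of sizes, and all 8 with reads lay below whole brain in both HVC libraries. The third called member, *MAOA*, which degrades monoamines, had 99.8 and 21.5 normalised reads in HVC, against 213 in whole brain, and its call was lost with the sizes from the age comparisons.

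Striatal and subpallial markers mostly lay below whole brain, but few passed the test. Of 16 tested, 3 were lower and 0 higher, 2 with both sets of sizes, and the lower count lies near the share over all tested, 21.8%. The median was -1.29, and 15 lay below whole brain in both HVC libraries. *LHX8*, a LIM homeodomain factor of basal forebrain cholinergic neurons, had 3 and 7 reads as counted in HVC, against 163 in whole brain (log2 fold change -4.16, SE 0.561, edgeR adjusted p = 4.04e-05). *ZNF521*, a zinc finger factor of striatal neurons in mouse, had 235 and 269.6 normalised reads in HVC, against 899 in whole brain (log2 fold change -1.83, SE 0.296, edgeR adjusted p = 0.00036). The enkephalin gene *PENK*, with 577 and 668 in HVC, against 1098 in whole brain, and the striatal phosphodiesterase *PDE10A*, with 457 and 479.7 in HVC, against 801 in whole brain, did not pass (edgeR adjusted p = 0.1252 and 0.16).

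The choroid plexus, which makes cerebrospinal fluid, was marked by *TTR-1*, the carrier of thyroid hormone, with 9 and 18 reads as counted in HVC, against 1401 in whole brain (log2 fold change -5.84, SE 0.361, edgeR adjusted p = 7.06e-11). *SLC13A4*, a sulfate carrier, had 1 and 3 reads as counted in HVC, against 69 in whole brain, at -4.20 (SE 0.7501), and *ENPP2*, the lipid enzyme autotaxin, had 1668 and 1616 normalised reads in HVC, against 3894 in whole brain, at -1.25 (SE 0.288). *ENPP2*, which oligodendrocytes also make, kept many reads in HVC, unlike the other 2. Of 6 members tested, 4 were lower, 3 with both sets of sizes. *LRP2*, the endocytic receptor megalin, was called higher, at 1.19 (SE 0.3103), and lost the call with the sizes from the age comparisons.

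Genes of motile cilia, which ependymal cells of the ventricle carry, lay mostly above whole brain, and how many passed varied with the scaling. Summed over the 19 members with counts, they had 1317 and 1735 normalised reads in HVC, against 946 in whole brain, and 17 lay above whole brain in both HVC libraries, while the median of the 18 tested was 1.36. Of these 3 passed as higher and 1 as lower, and 0 of these passed with both sets of sizes, while 0, 9 and 0 were called higher and 0, 0 and 0 lower under the 3 scalings over listed transcripts. The 3 called higher of 18 lie near the share over all tested, 13.9%. *DNAH1*, an axonemal dynein heavy chain, had 122 and 218 in HVC, against 56 in whole brain, at 1.61 (SE 0.444). *WDR78*, a dynein intermediate chain, had 6 and 16 reads as counted in HVC, against 0 in whole brain, at least 6.63-fold higher. *DYX1C1*, a dynein assembly factor, went against the group, with 21.9 and 19.8 in HVC, against 87 in whole brain, at -2.05 (SE 0.546). The part of ventricular tissue in these values was not tested.

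Myelin markers lay below whole brain, and those of astrocytes and radial glia lay on both sides. Of 10 myelin and oligodendrocyte transcripts tested, from a list of 33 names, 7 were lower and 0 higher. With both sets of sizes 2 were lower, and 0, 0 and 0 under the 3 scalings over listed transcripts. The median was -1.27, against -0.69 over all tested. A shift of at most 0.552 would leave both below 0, so staying below 0 is not particular to this list. *ST18*, a factor of oligodendrocyte maturation, had 63.8 and 57.9 normalised reads in HVC, against 198 in whole brain (log2 fold change -1.70, SE 0.398, edgeR adjusted p = 0.0125). Its HVC libraries lay close together and well under whole brain. Genes of astrocytes and radial glia were higher for 4 of 10 and lower for 1, while 3, 6 and 2 were called higher and 0, 0 and 0 lower under the 3 scalings over listed transcripts. *VIM*, the vimentin of radial glia, had 929.8 and 1229 normalised reads in HVC, against 330 in whole brain (log2 fold change 1.71, SE 0.326, edgeR adjusted p = 0.00216), and *TNC*, a matrix glycoprotein of radial glia, had 124 and 99.2 in HVC, against 22 in whole brain, at 2.33 (SE 0.542). Both were called with both sets of sizes. *FABP7*, the radial glial lipid carrier, at 1.03 (SE 0.316), and *SOX9*, at 3.05 (SE 1.004), were not. Neither was *PAX6*, the called member that was lower, at -1.80 (SE 0.465). The 5 members that did not pass, among them the water channel of astrocytes at 0.59, stood at -1.20 to 1.24.

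Microglial, vascular and meningeal genes lay on both sides of whole brain. *MRC1-2*, a mannose receptor of macrophages, had 47.9 and 67.8 normalised reads in HVC, against 296 in whole brain (log2 fold change -2.34, SE 0.375, edgeR adjusted p = 0.000341) and was the only 1 of 7 microglial members to pass. Endothelial and mural genes gave 2 higher and 2 lower of 7 (2, 4 and 2 were called higher and 0, 1 and 0 lower under the 3 scalings over listed transcripts), among them *ANGPT1*, a vessel growth factor, with 1 and 3 reads as counted in HVC, against 46 in whole brain, at -3.61 (SE 0.833). Fibroblast and meningeal genes gave 3 and 2 of 8 (2, 5 and 2 were called higher and 1, 2 and 1 lower under the 3 scalings over listed transcripts), with *POSTN*, the matrix protein periostin, at 271 and 296 in HVC, against 82 in whole brain (log2 fold change 1.79, SE 0.366, edgeR adjusted p = 0.00404), and *COL13A1*, a membrane collagen, at 1 and 1 reads as counted in HVC, against 52 in whole brain, a ratio of 0.0348 with an exact 95% counting interval of 0.004104 to 0.132. The red cell marker *RHAG* had 4 and 11 reads as counted in HVC, against 3 in whole brain.

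Several markers of pallial glutamatergic neurons, the class to which the projection neurons of HVC belong, were lower in HVC than in whole brain. Of 10 tested, 5 were lower and 1 higher, and 0 higher and 3 lower held with both sets of sizes, while 1, 2 and 1 were called higher and 1, 1 and 1 lower under the 3 scalings over listed transcripts. *EOMES*, a T-box factor of pallial progenitors and of cerebellar brush cells, had 7 and 8 reads as counted in HVC, against 113 in whole brain (log2 fold change -3.04, SE 0.552, edgeR adjusted p = 0.00132). *RORB*, an orphan receptor of sensory cortex in mammals, had 152 and 119 normalised reads in HVC, against 362 in whole brain (log2 fold change -1.42, SE 0.327, edgeR adjusted p = 0.0111). The member called higher was *SOX5*, a factor of deep-layer cortical neurons in mouse, with 505 and 466 in HVC, against 232 in whole brain, at 1.06 (SE 0.327), and its call was lost with the sizes from the age comparisons.

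Interneuron genes lay on both sides of whole brain. *PVALB-2*, the abundant parvalbumin copy, had 1552 and 1839 normalised reads in HVC, against 734 in whole brain, at 1.21 (SE 0.311), while *CALB2*, the calretinin gene, had 19.95 and 21.5 in HVC, against 116 in whole brain (log2 fold change -2.47, SE 0.519, edgeR adjusted p = 0.00517). *RELN*, the secreted protein reelin, had 1435 and 805 in HVC, against 3801 in whole brain (log2 fold change -1.76, SE 0.315, edgeR adjusted p = 0.00112), and *NXPH1*, a neurexin ligand of interneurons, had 204 and 202 in HVC, against 618 in whole brain, at -1.61 (SE 0.308). The abundant parvalbumin copy was thus higher and the calretinin and reelin genes lower in both HVC libraries. Both libraries lay on one side of whole brain for 1797 of the 1800 listed transcripts, so this agreement is not particular to these genes. *GAD2*, which makes GABA, had 4473 and 4026 in HVC, against 7201 in whole brain, and did not pass (edgeR adjusted p = 0.197). In all, 3 members were higher and 3 lower of 11 tested, and with both sets of sizes 1 and 3, *PVALB-2* being among those lost.

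Genes of newborn and growing neurons were higher for 3 of 5 tested and lower for 2, while 3, 3 and 2 were called higher and 0, 0 and 0 lower under the 3 scalings over listed transcripts. *STMN1*, which encodes the microtubule regulator stathmin of migrating neurons, had 303 and 233 normalised reads in HVC, against 58 in whole brain (log2 fold change 2.20, SE 0.3901, edgeR adjusted p = 0.00101), and *DCX*, the doublecortin of young neurons, had 162 and 169 in HVC, against 71 in whole brain, at 1.22 (SE 0.405) with edgeR adjusted p = 0.0989. *GAP43*, the growth cone protein, was lower, with 533 and 508 in HVC, against 1150 in whole brain, at -1.14 (SE 0.284), and *ST8SIA2*, which adds polysialic acid to NCAM, at -1.67 (SE 0.494). Of these 4, *STMN1* alone was called with both sets of sizes.

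Genes of neuropeptides and their processing lay on both sides of whole brain, and some were far higher in HVC. Of 18 tested, 8 were higher and 2 lower, 5 and 0 with both sets of sizes, and 7, 8 and 6 were higher under the 3 scalings over listed transcripts. The 8 include genes of a binding protein, *CRHBP*, and of an enzyme, *PHEX*. The median was 0.15, and in both HVC libraries 9 members with counts lay above whole brain and 11 below. *NTS*, the precursor of neurotensin (chromosome 1A of taeGut1, 41472811 to 41485260), had 3065 and 3915 normalised reads in HVC, against 606 in whole brain (log2 fold change 2.53, SE 0.348, edgeR adjusted p = 5.42e-05). *PHEX*, a membrane endopeptidase, had 505 and 384 in HVC, against 39 in whole brain (log2 fold change 3.50, SE 0.411, edgeR adjusted p = 4.56e-06). The HVC libraries lay close together for both genes and clear of whole brain. *CCK*, the cholecystokinin gene, had 22 and 28 reads as counted in HVC, against 9 in whole brain, at 2.30 (SE 0.711), and lost its call with the sizes from the age comparisons. The convertase *PCSK1*, with 119.7 and 116 in HVC, against 273 in whole brain, and the glutaminyl cyclase *QPCT*, with 39.9 and 19.8 in HVC, against 108 in whole brain, which both finish peptide hormones, were lower and lost their calls in the same way. *SCG2*, the secretogranin of dense-core vesicles, had 2592 and 2067 in HVC, against 4168 in whole brain, and did not pass (edgeR adjusted p = 0.131).

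Genes of retinoid, steroid and thyroid hormone signalling included 3 that were higher in HVC and 2 that were lower, of 10 tested, while 3, 4 and 2 were called higher and 0, 1 and 0 lower under the 3 scalings over listed transcripts. Beside *ALDH1A2*, the gene *DIO2*, whose deiodinase activates thyroid hormone, had 20 and 38 reads as counted in HVC, against 8 in whole brain (log2 fold change 2.66, SE 0.721, edgeR adjusted p = 0.0345). Its reads were few, but each HVC library held more than whole brain even as counted. The aromatase transcript *CP19A_TAEGU*, whose enzyme turns androgen into estrogen, had 118 and 82.7 normalised reads in HVC, against 246 in whole brain, at -1.30 (SE 0.364), so it was lower in HVC. With the sizes from the age comparisons, *ALDH1A2* kept its call, while *DIO2* and aromatase lost theirs.

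**Figure D3:**
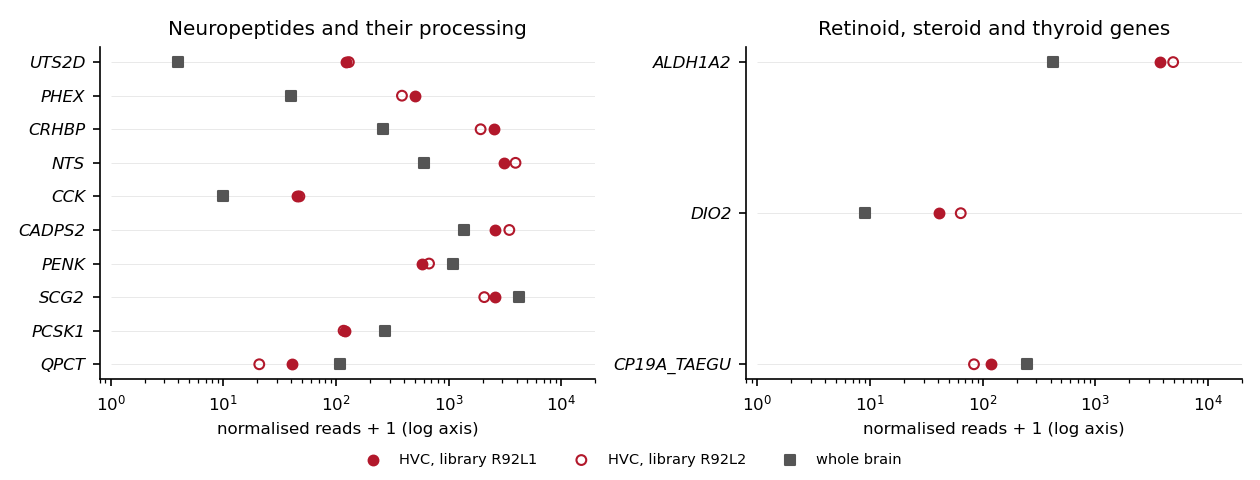
Normalised reads plus 1 on a log axis for the members of the neuropeptide list (left) and of the retinoid, steroid and thyroid list (right) that are named in the report, ordered by log2 fold change; red circles are the 2 HVC libraries and grey squares whole brain. *UTS2D*, *PHEX*, *CRHBP* and *NTS* at the top left and *ALDH1A2* at the top right have both HVC libraries far to the right of whole brain, and *QPCT* and *CP19A_TAEGU* at the bottom have both to the left.

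Receptors for modulators and for inhibitory transmitters were found among both the lower and the higher transcripts. Of 21 receptors for amines, acetylcholine and peptides tested, 6 were lower and 2 higher. These counts lie near the shares over all tested, 21.8% lower and 13.9% higher. With both sets of sizes 1 higher and 1 lower held, while 2, 7 and 2 were called higher and 1, 2 and 1 lower under the 3 scalings over listed transcripts. *HTR1B*, a serotonin receptor of axon terminals, had 108 and 134 normalised reads in HVC, against 437 in whole brain (log2 fold change -1.85, SE 0.324, edgeR adjusted p = 0.000911). *CALCR*, the calcitonin receptor, had 285 and 253 normalised reads in HVC, against 96 in whole brain (log2 fold change 1.48, SE 0.361, edgeR adjusted p = 0.0167), and *BRS3*, a bombesin-like receptor, had 529 and 633 in HVC, against 253 in whole brain, at 1.20 (SE 0.325). *HTR1B* and *CALCR* were called with both sets of sizes and *BRS3* was not, nor were the kappa opioid receptor *OPRK1*, at -2.62 (SE 0.618), or the nicotinic subunit *CHRNA4*, at -2.09 (SE 0.501).

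Among GABA and glycine receptors, 5 of 9 were lower and 1 higher, 4 and 1 with both sets of sizes, and 0, 5 and 0 were lower under the 3 scalings over listed transcripts. *GABRE*, the epsilon subunit, was the higher one, with 331 and 296 normalised reads in HVC, against 109 in whole brain (log2 fold change 1.52, SE 0.356, edgeR adjusted p = 0.0125), and the glycine receptor subunit *GLRA3* had 423 and 296 in HVC, against 1057 in whole brain (log2 fold change -1.56, SE 0.298, edgeR adjusted p = 0.00222).

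Glutamate receptor genes and their partners gave 3 lower and 1 higher of 15 tested, while 0, 5 and 0 were called higher and 1, 1 and 1 lower under the 3 scalings over listed transcripts. The lower count lies near the share over all tested, 21.8%, and the higher count under its share, 13.9%. *DLG3*, a postsynaptic scaffold, had 1034 and 719 normalised reads in HVC, against 2214 in whole brain (log2 fold change -1.34, SE 0.294, edgeR adjusted p = 0.00749), and *OLFM3*, an olfactomedin of AMPA receptor complexes, had 202 and 259.7 in HVC, against 743 in whole brain, at -1.68 (SE 0.306). *NPTXR*, the neuronal pentraxin receptor, was the higher one, at 1.77 (SE 0.548), and was not called with the sizes from the age comparisons.

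Ion channel genes were called in both directions. The potassium channel *KCNV1*, a silent subunit that modifies other channels, had 317 and 245 normalised reads in HVC, against 73 in whole brain (log2 fold change 1.94, SE 0.377, edgeR adjusted p = 0.00255), and the leak channel *KCNK1* had 29.9 and 29.8 in HVC, against 270 in whole brain (log2 fold change -3.17, SE 0.4101, edgeR adjusted p = 2.45e-05). Of 18 potassium channel genes tested, 2 were higher and 5 lower, near the shares over all tested, 13.9% and 21.8%. Only *KCNV1* and *KCNK1* held with both sets of sizes, while 2, 7 and 1 were called higher and 1, 1 and 1 lower under the 3 scalings over listed transcripts. Both A-type channel genes, *KCND2*, at -1.79 (SE 0.506), and *KCND3*, at -2.12 (SE 0.523), were lower with the first sizes alone. Among sodium, calcium, TRP and pacemaker channels, 6 of 12 were lower and 2 higher, 2, 3 and 1 were called higher and 1, 1 and 1 lower under the 3 scalings over listed transcripts, and only *TRPM3*, a cation channel also high in choroid plexus, held under both, with 629 and 543 normalised reads in HVC, against 2017 in whole brain (log2 fold change -1.78, SE 0.282, edgeR adjusted p = 0.000304). *TRPM2*, a calcium channel gated by oxidative stress, stood at 1.39 (SE 0.377) and lost its call with the sizes from the age comparisons.

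Proteins of vesicle fusion gave 12 lower and 4 higher of 28 tested, 2 and 2 with both sets of sizes, while 6, 7 and 2 were called higher and 1, 2 and 1 lower under the 3 scalings over listed transcripts. *RAB27A*, a small GTPase that docks secretory granules, had 184 and 212 normalised reads in HVC, against 46 in whole brain (log2 fold change 2.10, SE 0.419, edgeR adjusted p = 0.00329), and *SYT14*, a synaptotagmin, had 361 and 332 in HVC, against 125 in whole brain, at 1.47 (SE 0.351). *SNCG*, the gamma synuclein, had 37.9 and 33.1 in HVC, against 157 in whole brain, at -2.14 (SE 0.4603). *CADPS2*, which primes dense-core vesicles, stood at 1.13 (SE 0.323), and *RPH3A*, an effector of RAB3, at -1.82 (SE 0.404), and neither held with the sizes from the age comparisons. The calls in this group thus differed between vesicle proteins, and the lower ones were few under other scalings. The general fusion ATPase *NSF* had 1582 and 1769.8 in HVC, against 928 in whole brain, and did not pass (edgeR adjusted p = 0.133).

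Axon guidance genes were called in both directions. All 4 members called higher of 21 tested held with both sets of sizes, against 2 of 8 called lower, while 4, 5 and 4 were called higher and 1, 1 and 1 lower under the 3 scalings over listed transcripts. *SEMA3E*, a secreted semaphorin, had 860.0 and 1098 normalised reads in HVC, against 235 in whole brain (log2 fold change 2.06, SE 0.333, edgeR adjusted p = 0.00036). *NRP1*, a coreceptor of semaphorins, had 1115 and 1145 in HVC, against 371 in whole brain, at 1.61 (SE 0.314), and *ROBO2*, a receptor of the SLIT ligands, had 1071 and 1369.5 in HVC, against 475 in whole brain, at 1.36 (SE 0.316). For these 3 genes both HVC libraries lay close together and above whole brain. The SLIT ligands lay lower, *SLIT3* with 23.9 and 28.1 in HVC, against 159 in whole brain (log2 fold change -2.60, SE 0.481, edgeR adjusted p = 0.00167) and *SLIT2* with 174 and 228 in HVC, against 467 in whole brain, at -1.21 (SE 0.3196). *SLIT2* was not called with the sizes from the age comparisons. The 8 called lower also hold another SLIT receptor, at -0.94, and other semaphorins, at -1.32 and -1.02. Receptors and ligands thus stood on both sides.

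Cadherins and other adhesion proteins gave 13 lower and 4 higher of 32 tested, and 2 higher and 4 lower held with both sets of sizes, while 3, 7 and 2 were called higher and 4, 4 and 4 lower under the 3 scalings over listed transcripts. *CDH6*, a type II cadherin, had 2041 and 2585 normalised reads in HVC, against 840 in whole brain (log2 fold change 1.46, SE 0.322, edgeR adjusted p = 0.00758), and *FAT4*, an atypical cadherin of planar polarity, had 625 and 794 in HVC, against 223 in whole brain, at 1.67 (SE 0.331). *SLITRK6*, a synaptic adhesion protein, had 41.9 and 28.1 in HVC, against 207 in whole brain (log2 fold change -2.57, SE 0.436, edgeR adjusted p = 0.000631), and *NRXN3-2*, a neurexin copy, had 2 and 3 reads as counted in HVC, against 62 in whole brain, at -3.73 (SE 0.731). Cadherins stood on both sides, since *FAT2* above was lower, and *CDH9*, a type II cadherin, at 0.91 (SE 0.306), did not pass (edgeR adjusted p = 0.103).

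Matrix genes gave 7 higher and 9 lower of 33 tested, and 3 higher and 4 lower held with both sets of sizes, while 5, 12 and 5 were called higher and 3, 5 and 3 lower under the 3 scalings over listed transcripts. The first counts lie not far from the shares over all tested, 13.9% higher and 21.8% lower. *THBS4*, a thrombospondin that promotes synapse formation and neurite growth, had 409 and 415 normalised reads in HVC, against 31 in whole brain (log2 fold change 3.73, SE 0.414, edgeR adjusted p = 1.76e-06). *SULF1*, which trims heparan sulfate, had 104 and 86.01 in HVC, against 345 in whole brain (log2 fold change -1.86, SE 0.338, edgeR adjusted p = 0.00132), and *SVEP1*, a large adhesion protein, had 112 and 119 in HVC, against 400 in whole brain, at -1.79 (SE 0.324). *THBS4* was the largest difference of this group in the higher direction, and its HVC libraries were nearly equal. Growth factor and Wnt genes gave 2 higher and 6 lower of 19, 2, 7 and 0 were called higher and 1, 1 and 1 lower under the 3 scalings over listed transcripts, and only *DLK1*, a Notch-like membrane protein, held with both sets of sizes, with 146 and 142 in HVC, against 570 in whole brain (log2 fold change -1.98, SE 0.314, edgeR adjusted p = 0.00031).

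Solute carriers gave 10 members called higher of 35 tested, against 3 called lower, and 3 and 3 held with both sets of sizes, while 7, 16 and 5 were called higher and 3, 3 and 3 lower under the 3 scalings over listed transcripts. *SLC26A4*, the anion exchanger pendrin (chromosome 1A of taeGut1, 13854807 to 13875035), had 509 and 466 normalised reads in HVC, against 105 in whole brain (log2 fold change 2.21, SE 0.358, edgeR adjusted p = 0.00036). *SLC22A16*, a carnitine carrier, had 473 and 539 in HVC, against 175 in whole brain (log2 fold change 1.53, SE 0.338, edgeR adjusted p = 0.00783). The 3 lower carriers are the markers *SLC5A7*, *SLC13A4* and *SLC1A6* given above.

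Ribosomal, respiratory and splicing genes were called in both directions, and the lower calls were fewer under the scalings over listed transcripts. Many of these genes have near-identical copies in vertebrate genomes, and reads may be divided among them. Cytosolic ribosomal proteins gave 4 higher and 3 lower of 20 tested, not far from the shares over all tested, 13.9% and 21.8%. Their median was 1.30, and 16 members lay above whole brain in both HVC libraries. Under the 3 scalings over listed transcripts 3, 10 and 2 were called higher and 0, 1 and 0 lower. *RPS2* had 58 and 46 reads as counted in HVC, against 4 in whole brain (log2 fold change 4.52, SE 0.732, edgeR adjusted p = 0.00036), and *RPL23A* had 168 and 101 normalised reads in HVC, against 447 in whole brain, in the other direction (log2 fold change -1.74, SE 0.339, edgeR adjusted p = 0.00253), and these were the 2 that held with both sets of sizes. *RPS2* was counted in few reads of whole brain, while *RPL23A* was common there. Respiratory chain and ATP synthase genes gave 8 higher and 7 lower of 22, with a median of 0.03, while 4, 8 and 3 were called higher and 1, 2 and 2 lower under the 3 scalings over listed transcripts. *COX7B*, a subunit of cytochrome oxidase, had 225 and 245 normalised reads in HVC, against 1734 in whole brain (log2 fold change -2.88, SE 0.288, edgeR adjusted p = 3.21e-07), while *NDUFA4*, a subunit of the same complex, had 559 and 705 in HVC, against 214 in whole brain, at 1.56 (SE 0.333). *ATP5A1*, the catalytic-core alpha subunit of ATP synthase, was higher, at 1.42 (SE 0.311), and its inhibitor *ATPIF1* lower, at -1.69 (SE 0.317).

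Splicing genes gave 16 lower and 5 higher of 36 tested, 2 and 1 with both sets of sizes, while 5, 10 and 4 were called higher and 1, 1 and 1 lower under the 3 scalings over listed transcripts. *NCBP2*, a subunit of the cap-binding complex, had 6 and 4 reads as counted in HVC, against 120 in whole brain (log2 fold change -3.69, SE 0.587, edgeR adjusted p = 0.000323), and *SFRS3*, a serine and arginine rich splicing factor, had 1103 and 1047 normalised reads in HVC, against 426 in whole brain, at 1.34 (SE 0.3100). Proteasome and ubiquitin genes gave 5 higher and 1 lower of 19 (5, 7 and 4 were called higher and 0, 0 and 0 lower under the 3 scalings over listed transcripts), with the ubiquitin copy *UBB-2* at 1065 and 699.6 normalised reads in HVC, against 253 in whole brain (log2 fold change 1.80, SE 0.342, edgeR adjusted p = 0.00211). The balance of calls in the splicing list depended on the scaling. The median of that list was -0.91, against -0.69 over all tested. The 3 scalings shift values by at most 0.552, too little to bring this median, or that over all tested, above 0. Among chaperones, *BAG3*, a partner of HSP70 in stressed cells, stood out with 225 and 180.3 normalised reads in HVC, against 1456 in whole brain (log2 fold change -2.85, SE 0.294, edgeR adjusted p = 5.47e-07), and *HSP90B1*, the chaperone of the endoplasmic reticulum, had 1909 and 1869 in HVC, against 4842 in whole brain, at -1.36 (SE 0.2897). In sterol synthesis 2 of 7 genes were higher and 0 lower, 0 with both sets of sizes, *DHCR7*, its last reductase, being at 1.59 (SE 0.402). Cell cycle genes gave 3 higher and 3 lower of 17, near the shares over all tested, 13.9% and 21.8%. Under the 3 scalings over listed transcripts 3, 5 and 2 were called higher and 0, 0 and 0 lower. Only *POLQ*, a DNA repair polymerase, held with both sets of sizes, at 1.81 (SE 0.369).

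Several genes that neuronal activity induces were lower in HVC. *EGR1*, the immediate early gene that song induces in songbird brain (chromosome 13 of taeGut1, 18142 to 21075), had 1838 and 1606 normalised reads in HVC, against 6079 in whole brain (log2 fold change -1.82, SE 0.292, edgeR adjusted p = 0.000346). *NR4A3*, an orphan nuclear receptor of the same response, had 134 and 109 in HVC, against 416 in whole brain (log2 fold change -1.78, SE 0.325, edgeR adjusted p = 0.00141). Both HVC libraries agreed closely for *EGR1* and held less than whole brain. Of 8 members tested, 4 were lower and 0 higher, 3 with both sets of sizes and 2, 2 and 2 (of 7) under the 3 scalings over listed transcripts. *NPTX2*, an activity-regulated pentraxin, had 383 and 239.8 in HVC, against 168 in whole brain, and did not pass (edgeR adjusted p = 0.21).

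Genes of interferon response and innate immunity lay mostly above whole brain. The list also holds Toll-like and interleukin receptors, among them a Toll-like receptor called higher, at 4.28. The 3 members below whole brain include an interferon gene, at -1.17 and not called. Of 21 tested, 5 were higher and 0 lower, 3 with both sets of sizes, the median was 1.68, and 18 lay above whole brain in both HVC libraries, while 4, 11 and 3 were called higher and 0, 0 and 0 lower under the 3 scalings over listed transcripts. *ISG12*, an interferon-induced gene (chromosome 2 of taeGut1, 94975562 to 94980116), had 4515 and 9623 normalised reads in HVC, against 937 in whole brain (log2 fold change 2.92, SE 0.421, edgeR adjusted p = 0.000104). The HVC libraries differed 2.13-fold for this gene, and it gives most of the reads of its group, which summed to 5806 and 11249 normalised reads in HVC, against 1535 in whole brain. *LY6E-2*, a membrane-anchored LY6 protein that interferon also induces, had 182 and 286 in HVC, against 28 in whole brain (log2 fold change 3.06, SE 0.456, edgeR adjusted p = 0.000146), and its copy *LY6E-1* stood at 2.49 (SE 0.584).

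Genes named for muscle gave 5 higher and 5 lower of 18 tested, while 3, 7 and 2 were called higher and 1, 2 and 1 lower under the 3 scalings over listed transcripts. *LDB3*, an adaptor of the Z-disc, had 241 and 278 normalised reads in HVC, against 56 in whole brain (log2 fold change 2.21, SE 0.389, edgeR adjusted p = 0.000927), and it and *CASQ2* were the only members that held with both sets of sizes. *TNNT3*, a troponin of fast muscle, had 2 and 3 reads as counted in HVC, against 41 in whole brain, at -3.13 (SE 0.819).

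Of 10 listed transcripts annotated as miRNA genes, 6 were tested, and 4 were called higher and 0 lower; these were looked at after their values were seen. All 4 lie on sequence not placed on a chromosome, and the files give them no gene name. The most abundant, ENSTGUT00000018245, had 10032 and 3578 normalised reads in HVC, against 529 in whole brain (log2 fold change 3.68, SE 0.486, edgeR adjusted p = 3.14e-05), and ENSTGUT00000018345 had 3388 and 787 in HVC, against 102 in whole brain, at 4.35 (SE 0.586). Both held with both sets of sizes, but the HVC libraries lay 2.80-fold and 4.30-fold apart, R92L1 being the higher. Whether the 2 transcripts share reads was not tested. The study selected library inserts far longer than a mature miRNA, so these reads need not measure mature miRNA.

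**Figure D4:**
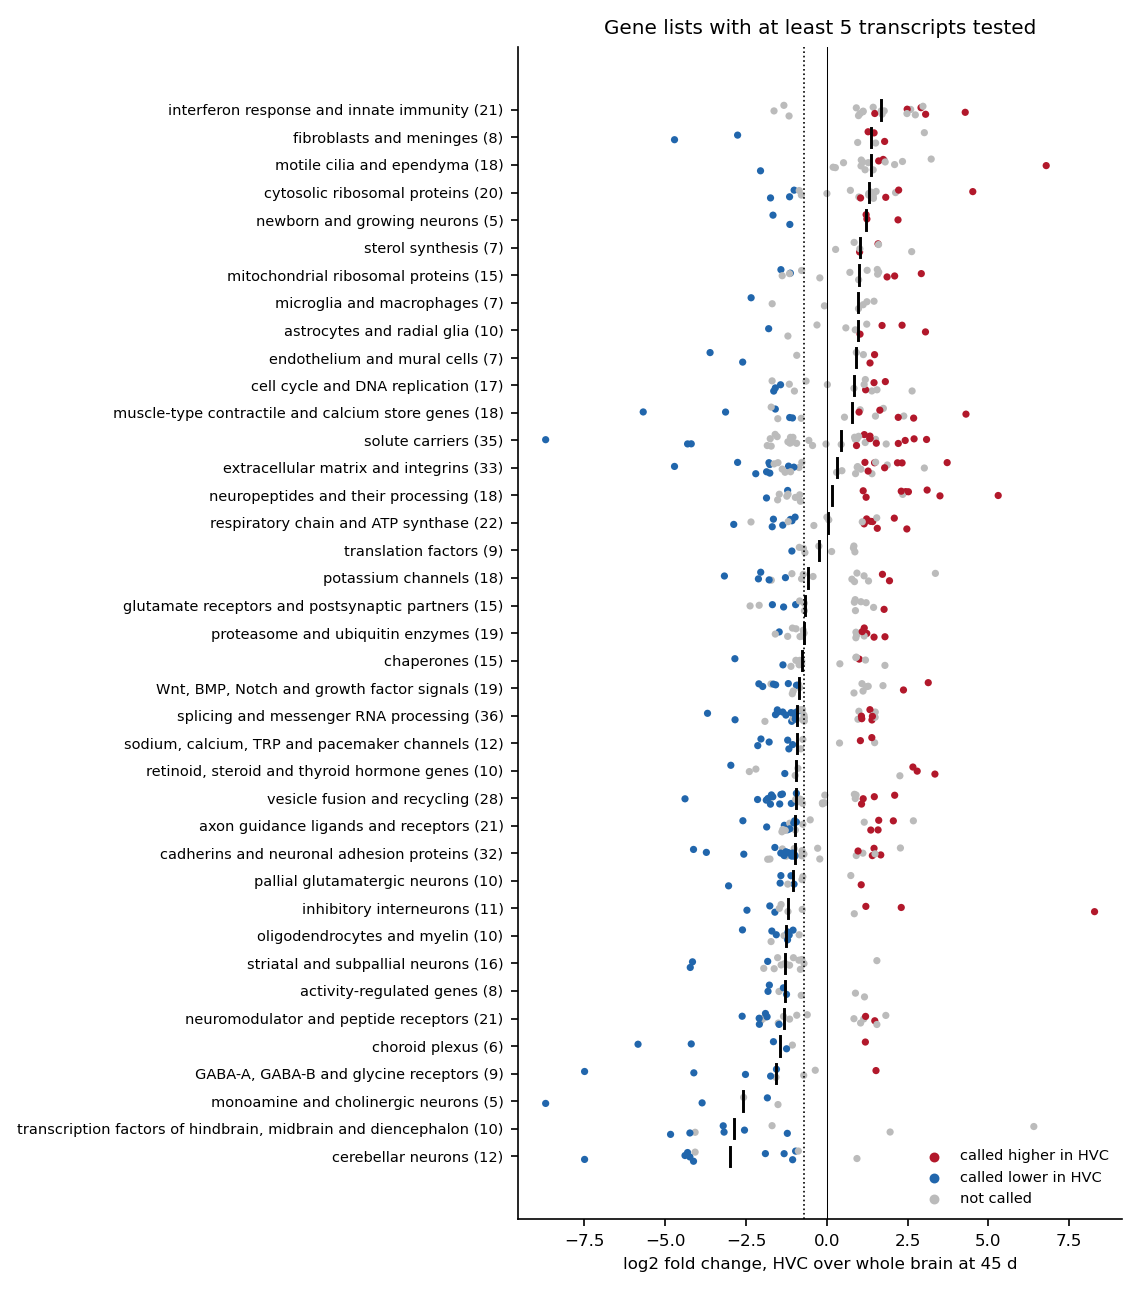
Log2 fold change, HVC over whole brain at 45 d, of every tested member (points) of the 39 gene lists with at least 5 transcripts tested, ordered by median (black bars); red points were called higher in HVC, blue lower and grey not called, and the dotted line is the median over all tested, -0.69. Genes of interferon response and innate immunity have the highest median, 1.68. Cerebellar genes, -2.99, and factors of hindbrain, midbrain and diencephalon, -2.86, have the lowest as drawn. With groups without reads at their bound, cerebellar genes (-2.73) lie above those factors. Under the 3 scalings over listed transcripts, cerebellar genes, at -1.60 to -1.35, lie above both those factors and the monoamine and cholinergic list. Groups without reads are drawn at the fitted value, which depends on the prior count.

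Adult libraries, which the 45 d fit did not use, gave reads for 193 of the transcripts called higher and 308 of those called lower. HVC lay above whole brain at 100 d for 190 of the 193 and below it for 302 of the 308, while over all 1140 tested transcripts with adult reads it lay above for 499. Many of these reads come from a table that lists transcripts for a tissue difference at 100 d. Where the adult reads come from the age comparisons alone, HVC lay above for 12 of 14 called higher and below for 8 of 13 called lower, against 122 above of 243 tested. These transcripts were listed for age and not for a tissue difference at 100 d. They are thus selected too, against a large adult difference. At 100 d, as counted, *ALDH1A2* had 1575 reads in HVC, against 249 in whole brain, and *CRHBP* had 1670 reads in HVC, against 251 in whole brain. *EBF3* had 3 reads in HVC, against 256 in whole brain, and *EGR1* had 975 reads in HVC, against 3569 in whole brain. Each of the 4 lay on the same side of whole brain as at 45 d.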

How the data were processed

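RNA pooled from male zebra finches was made into Illumina libraries, and the authors mapped the reads with ELAND2 to taeGut1 and counted them per Ensembl transcript. Each deposited table gives raw read counts for those transcripts whose p-values were smallest in 1 comparison, with the authors' log2 fold changes and p-values. The deposited log2 fold changes served only to recover the library sizes behind the counts, and the deposited p-values and adjusted p-values only to count the transcripts the authors tested. No value of these columns is printed.

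Counts of the 3 libraries at 45 d were taken from every table, which gave 2086 transcripts, and 1928 passed the filterByExpr function. They were fitted with the quasi-likelihood test of edgeR 4.0.16 in R 4.3.3, with Benjamini-Hochberg adjustment over 11507 transcripts and calls at an adjusted p under 0.1. The spread comes from the pair of HVC libraries alone. DESeq2 1.42.0 and limma 3.58.1 (voom) were alternatives. The fit was also run on simulated counts with a common dispersion, without a choice of transcripts on their difference. Adjustment there ran over the simulated transcripts alone, so that run does not test the number of calls given here. Python 3.11.15 made tables, intervals and figures. Where a group had no reads, the fold is a bound against 3 reads over the group, and where it had 1 to 3, an exact 95% interval is given. Such bounds and intervals cover counting error only.

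The comparison, its 40 gene lists and the tests were chosen with earlier results of these data known. Genes named are the 12 called transcripts with the largest fold change in each direction that have a symbol and a mean of at least 20 reads, and in each list up to 4 called members per direction with the smallest p and up to 3 with the most reads that did not pass. *ISG12*, *LDB3*, *LY6E-2* and *THBS4* were also admitted, as genes the study names. Some genes that this rule admits are not reported here. Which deposited HVC column belongs to which of the 2 juvenile HVC samples is not given in the sources used here, so the libraries are called by their headers.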

Additional observations from a re-analysis of the deposited data

Results flagged for a closer look

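In 6 of 1177 transcripts with reads in all 5 libraries, the log2 ratio of HVC over whole brain differed between 100 d and 45 d at an edgeR adjusted p under 0.1, in a test of the interaction of tissue and age, and 93 had an unadjusted p under 0.05. Each tissue had 1 library at 100 d, and the spread again came from the juvenile HVC pair. The adjustment here ran over these 1177 transcripts alone, each listed for a small p-value in some comparison, and not over the 11507 used above. By the rule of the 45 d calls, the 6 would not have passed. Differences below are 100 d minus 45 d.

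*SLC5A7*, the choline carrier, had 29 reads in HVC, against 86 in whole brain, at 100 d, and 0 and 0 reads in HVC, against 74 in whole brain, at 45 d. The fitted difference of 7.72 (SE 1.58, edgeR adjusted p = 0.0264) depends on the prior count, since the juvenile HVC libraries had no reads. *LHX8*, a homeodomain factor of basal forebrain neurons, had 47 reads in HVC, against 165 in whole brain, at 100 d, and 3 and 7 reads in HVC, against 163 in whole brain, at 45 d, a difference of 2.94 (SE 0.758, edgeR adjusted p = 0.0841). Both genes thus stood further below whole brain in juvenile HVC than in adult HVC.

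*TAC1*, the precursor of substance P, had 67 reads in HVC, against 17 in whole brain, at 100 d, and 10 and 11 reads in HVC, against 55 in whole brain, at 45 d, a difference of 4.08 (SE 0.922, edgeR adjusted p = 0.048). *RASGRP1*, which activates RAS, had 385 reads in HVC, against 254 in whole brain, at 100 d, and 64 and 114 reads in HVC, against 271 in whole brain, at 45 d, a difference of 1.96 (SE 0.508, edgeR adjusted p = 0.0841). ENSTGUT00000014843, which has no symbol in the files, had 85 reads in HVC, against 56 in whole brain, at 100 d, and 56 and 61 reads in HVC, against 254 in whole brain, at 45 d, a difference of 2.45 (SE 0.604, edgeR adjusted p = 0.0841). Whole brain itself held fewer reads of *TAC1* and of this transcript at 100 d than at 45 d.

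*ENO1*, an enzyme of glycolysis, went the other way. It had 459 reads in HVC, against 596 in whole brain, at 100 d, and 579 and 1002 reads in HVC, against 355 in whole brain, at 45 d, a difference of -1.77 (SE 0.452, edgeR adjusted p = 0.0841).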

How the results depend on the processing

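Of 1928 transcripts tested, edgeR called 688 (268 higher in HVC and 420 lower). Sums of listed reads gave 286 (217 higher and 69 lower), relative log expression 703 (593 higher and 110 lower), TMM 232 (159 higher and 73 lower) and the sizes from the age comparisons 222 (83 higher and 139 lower). DESeq2 called 121 (61 higher and 60 lower), limma-voom 341 (126 higher and 215 lower), and adjustment over the transcripts tested here alone gave 1680 (739 higher and 941 lower). Leaving out 1 HVC library, in a fit with the adult libraries, gave 0 to 582 calls (0 to 210 higher and 0 to 372 lower), the lowest without R92L1. Without a repeated group, the spread of that fit is the departure from additive terms, so its calls cannot be compared with the others. The cause of the differing numbers of calls was not tested beyond the prior degrees of freedom. These were 24.5 for the sizes used, 6.92 to 19.3 for the other 3 scalings and 7.17 for the sizes from the age comparisons. Both HVC libraries lay on 1 side of whole brain for 1797 listed transcripts with the sizes used and with those from the age comparisons, 1792 with sums of listed reads, 1752 with relative log expression and 1795 with TMM. Of 114 genes named in the report that were called, 71 were called under all 4 other sets of sizes and 56 by DESeq2, and no tested gene named there changed direction under any alternative run. No paired analysis was possible because the labels number the juvenile HVC samples only and whole brain had 1 library. With 1 residual degree of freedom and 1 whole brain library, single calls near the threshold are uncertain.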
